A study of Homo sapiens with 4 samples.

Results

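Distal peaks in later introns were peaks of APC ChIP-seq that lay in an intron other than the first intron of a transcript, more than 5 kb from the nearest annotated transcription start site (TSS) and outside annotated repeats. They were selected by annotation and distance alone, and they numbered 786 of 6263 peaks (12.5%) in replicate 1 and 1176 of 8393 peaks (14.0%) in replicate 2. The data came from HCT-116 cells, an established colon carcinoma line with the genotype APC wild-type, CTNNB1ΔSer45, which leaves β-catenin resistant to degradation. Both the APC ChIP and the input groups carried this genotype, so the lists describe APC only where WNT signaling is switched on. Cells were fixed with 1% formaldehyde for 10 min at 24 h after seeding, and chromatin was precipitated with a polyclonal antibody to the 50 residues at the C terminus of APC. There were 2 biological replicates of ChIP and 2 of input, and according to the published methods months passed between the replicates. Only the ChIP peak lists were analysed here. They held positions and widths but no read counts, so depth was unknown, and background entered only through the authors' peak calling against input. Peak positions cannot show which cell type a library came from, so the identity of the line was not checked.

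Introns beyond the first are long stretches of transcribed DNA that can hold enhancers, which are short elements bound by transcription factors that regulate a promoter on the same chromosome. An enhancer may act on the gene whose intron holds it, here called the host, or on a neighbor. APC holds together the cytoplasmic destruction complex of β-catenin, and the study addressed its smaller nuclear fraction on chromatin, where β-catenin works with TCF7L2, the main TCF factor of intestinal epithelium. AP-1 is the dimeric factor of the FOS and JUN proteins, which responds to growth factor and stress signals.

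The sequence of the widest regions that were found in both replicates is shown first, because motif content set these regions apart from the DNA around them. Sequences are from the plus strand of the hg19 reference genome and cover the 200 bases at the centre of each region. In the first set, capitals mark the AP-1 word TGACTCA or TGAGTCA, in either orientation. The regions lay in introns of MMP20, a matrix metalloproteinase of tooth enamel, STN1, a subunit of the complex that maintains telomere ends, and VMP1, an autophagy protein whose gene contains MIR21.
MMP20, chr11:102470395-102470594: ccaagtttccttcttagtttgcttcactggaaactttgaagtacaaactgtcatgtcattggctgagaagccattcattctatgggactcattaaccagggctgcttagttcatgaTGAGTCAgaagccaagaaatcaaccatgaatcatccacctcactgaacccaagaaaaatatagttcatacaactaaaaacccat
STN1, chr10:105655298-105655497: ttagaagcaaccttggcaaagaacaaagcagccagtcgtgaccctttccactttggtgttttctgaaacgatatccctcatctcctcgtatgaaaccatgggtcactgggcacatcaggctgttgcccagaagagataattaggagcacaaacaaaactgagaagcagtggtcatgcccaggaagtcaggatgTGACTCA
VMP1, chr17:57906727-57906926: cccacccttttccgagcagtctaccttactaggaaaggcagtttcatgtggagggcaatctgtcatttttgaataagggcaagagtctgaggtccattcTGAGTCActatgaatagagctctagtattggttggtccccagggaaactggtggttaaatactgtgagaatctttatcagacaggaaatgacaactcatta
The second set held no AP-1 word anywhere in the region, and capitals mark the TCF7L2 word (AACAAAG or ATCAAAG or TACAAAG or TTCAAAG, in either orientation). ARSG encodes a lysosomal sulfatase and PDE4B a cyclic AMP phosphodiesterase.
ARSG, chr17:66379924-66380123: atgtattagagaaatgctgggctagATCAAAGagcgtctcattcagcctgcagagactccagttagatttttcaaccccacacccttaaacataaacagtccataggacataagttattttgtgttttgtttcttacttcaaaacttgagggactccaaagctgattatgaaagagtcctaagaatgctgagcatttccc
PDE4B, chr1:66732102-66732301: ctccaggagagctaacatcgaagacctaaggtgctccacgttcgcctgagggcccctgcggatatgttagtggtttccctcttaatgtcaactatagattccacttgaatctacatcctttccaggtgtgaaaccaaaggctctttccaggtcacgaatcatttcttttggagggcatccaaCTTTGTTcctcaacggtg
The third set held neither word in replicate 1 coordinates, and the wider MTHFD1L peak of replicate 2 held 1 AP-1 word. FAM120B encodes a coactivator of the nuclear receptor PPARγ, and MTHFD1L is a mitochondrial enzyme of folate metabolism. The VMP1 and MTHFD1L windows come from other regions of these hosts than their widest.
FAM120B, chr6:170708084-170708283: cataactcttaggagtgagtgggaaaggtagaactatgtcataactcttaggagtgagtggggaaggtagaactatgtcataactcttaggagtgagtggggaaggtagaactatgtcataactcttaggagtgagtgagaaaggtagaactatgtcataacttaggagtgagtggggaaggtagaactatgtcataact
MTHFD1L, chr6:151357576-151357775: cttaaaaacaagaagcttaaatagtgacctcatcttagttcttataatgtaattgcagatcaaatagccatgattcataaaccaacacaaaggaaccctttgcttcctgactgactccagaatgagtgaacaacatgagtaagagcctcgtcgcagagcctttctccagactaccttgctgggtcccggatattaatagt
The FAM120B window is a tandem repeat, in which the replicate 1 window matched itself at 81.4% of bases when moved by 39 bp, although the annotation that was used to remove repeats did not list it as one. By the same measure, chosen after the sequences were seen (at least 80% identity at a shift of 2 to 100 bp), 6 of 596 regions found in both replicates (1.01%, 95% CI 0.370 to 2.18) were tandem repeats in replicate 1 coordinates, against 10 of 190 regions found in replicate 1 alone (5.26%, CI 2.55 to 9.47). In replicate 2 the counts were 3 of 571 and 3 of 605.

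Shorter stretches are shown for 2 hosts of the WNT pathway, which were picked after their values were seen. They cover 61 bases around the word nearest to the centre of a region in TCF7L2 itself and in RNF43, the gene of a transmembrane E3 ligase that clears Frizzled receptors from the membrane.
TCF7L2 intron 4, AP-1 word, chr10:114833528-114833588: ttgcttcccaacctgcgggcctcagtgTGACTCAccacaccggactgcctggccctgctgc
TCF7L2 intron 4, TCF7L2 word, chr10:114833437-114833497: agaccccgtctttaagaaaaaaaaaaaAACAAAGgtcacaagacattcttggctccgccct
RNF43 intron 2, TCF7L2 word, chr17:56469038-56469098: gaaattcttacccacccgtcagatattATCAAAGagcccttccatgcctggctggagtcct
The TCF7L2 region (chromosome 10, 114833379 to 114834012) thus held both words in its 635 bp, with the AP-1 word at -137 bp and the TCF7L2 word at -228 bp from its centre. That TCF7L2 word directly followed a run of A bases. In the RNF43 region (chromosome 17, 56468608 to 56469526) the word lay 1 bp from the centre.

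Whether later-intron peaks recurred between replicates was examined by asking if a peak had a centre of the other list under 400 bp away, and a peak with such a partner is called found in both. Of the 786 replicate 1 peaks, 596 were found in both (75.8%, 95% exact Clopper-Pearson CI 72.7 to 78.8), beside 63.6% of all replicate 1 peaks. Of the 1176 replicate 2 peaks, 571 were found in both (48.6%, CI 45.7 to 51.5), beside 45.5% of all replicate 2 peaks. Intervals cover counting error over peaks only, and neighboring peaks are not independent. Distal peaks in first introns recurred at 78.2% and 44.5%, and intergenic peaks over 50 kb from a TSS at 77.9% and 47.9%. Intergenic peaks 5 to 50 kb from a TSS recurred at 68.4% and 51.7%.

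Of 6 comparisons with these classes (Fisher's exact test, two-sided, with p-values adjusted by the Benjamini-Hochberg method and called adjusted exact p below), 1 passed the 0.05 threshold. Later-intron peaks were more often found in both than intergenic peaks at 5 to 50 kb in the replicate 1 list (odds ratio 1.45, CI 1.14 to 1.85, adjusted exact p = 0.0126), and the replicate 2 list gave the opposite direction (0.882, CI 0.733 to 1.06, adjusted exact p = 0.359). With 1 peak per gene the replicate 1 odds ratio was 1.16 (adjusted exact p = 0.464) and the call was lost. Against first introns the odds ratios were 0.875 (CI 0.622 to 1.22) and 1.18 (CI 0.944 to 1.46), and against intergenic peaks over 50 kb 0.889 (CI 0.683 to 1.16) and 1.03 (CI 0.861 to 1.23). That last comparison depended on the removal of repeats. With peaks in repeats kept in every class, later-intron peaks recurred more often than intergenic peaks over 50 kb in both lists (odds ratios 1.91, CI 1.58 to 2.29, and 1.71, CI 1.48 to 1.97, adjusted exact p = 4.89e-12 and 5.84e-13).

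**Figure D1:**
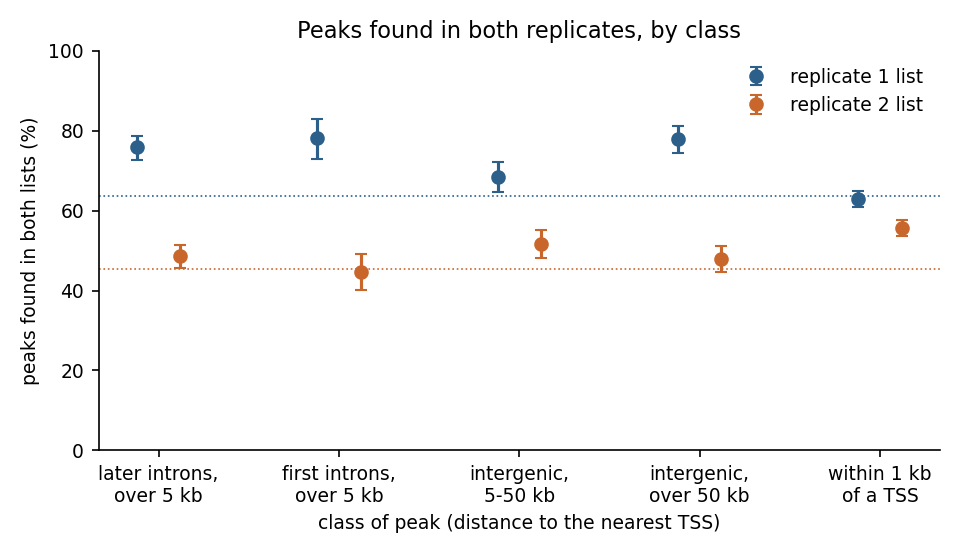
Share of peaks found in both lists (y axis, percent) for 5 classes of peak (x axis), in the replicate 1 list (blue) and the replicate 2 list (orange), with 95% Clopper-Pearson intervals as bars and the share of all peaks of each list as dotted lines. Later-intron peaks stand at 75.8% and 48.6%, and their intervals overlap those of first introns and of intergenic peaks over 50 kb in both lists.

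Recurrence followed peak width, the only measure of size in the files. Replicate 1 later-intron peaks were split by the widths of all peaks of that list into 5 groups. The share found in both was 32.1% of 140 peaks in the narrowest group (61 to 197 bp), 69.9% of 103 and 77.9% of 145 in the next groups, and 91.3% of 184 and 92.5% of 214 in the widest groups. In replicate 2 the shares were 8.17%, 26.2%, 47.9%, 68.0% and 82.3%. Regions found in both had a median width of 485 bp (quartiles 355 and 619) in replicate 1 and 688 bp (557 and 883.5) in replicate 2, while the unmatched peaks had medians of 198 and 428 bp. Recurrence also differed with distance to the TSS in replicate 1, from 62.3% of 69 peaks at 5 to 10 kb to 80.9% of 194 peaks over 100 kb away, and less in replicate 2, from 44.2% to 51.2%. Regions found in both at these distances had median widths of 416 and 488 bp in replicate 1 and 687.5 and 675 bp in replicate 2. The difference with distance, and the part of width in it, was not tested.

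The 596 replicate 1 regions matched 577 different replicate 2 peaks. The centres lay a median of 61.75 bp apart (quartiles 29.5 and 114.6), and the replicate 2 peak was the wider one in 91.6%, with a median ratio of 1.44. Across regions the log10 widths had a Pearson's r of 0.534 and a Spearman's rho of 0.611 (n = 596, as a description, since all regions share the same pair of libraries). The largest disagreement was in intron 2 of LINC-PINT, a long non-coding RNA induced by p53, where a replicate 1 peak of 214 bp had its centre under 400 bp from that of a replicate 2 peak of 11911 bp. A replicate 1 peak of 1350 bp within the same replicate 2 peak was counted as unmatched, because the centres lay 1069.5 bp apart.

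**Figure D2:**
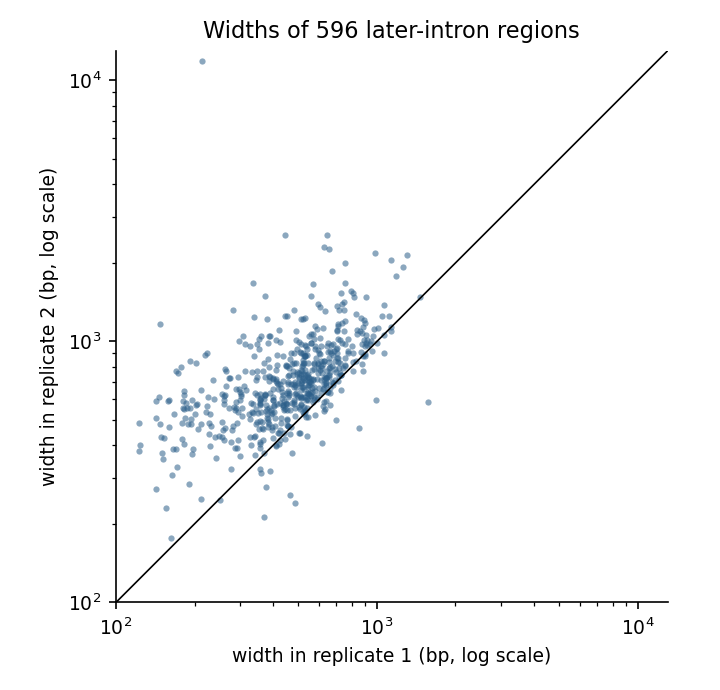
Width of each of the 596 regions in replicate 1 (x axis, bp, log scale) against the width of its replicate 2 partner (y axis, bp, log scale), with the line of equal width in black. Most points (91.6%) lie above the line, and the isolated point at the top left is the LINC-PINT peak of 11911 bp.

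The widest unmatched peaks of both lists are given with their nearest peak in the other list. In replicate 1 these were the LINC-PINT peak above, a 1167 bp peak in intron 9 of SYTL3, a RAB27 effector of vesicle trafficking, and a second LINC-PINT peak of 1024 bp, which did not overlap its neighbor of 978 bp. The SYTL3 peak overlapped a replicate 2 peak of 2245 bp whose centre was 445 bp away. In replicate 2 the widest were 3315 bp in LINC-PINT, 3098 bp in intron 5 of PHLDB2, and 2710 bp in intron 4 of the long non-coding RNA MSRB3-AS1. Their replicate 1 neighbors were narrower, at 327, 638 and 664 bp, with centres 619, 2012 and 405 bp away. In all, 28 of the 190 unmatched replicate 1 peaks and 12 of the 605 unmatched replicate 2 peaks overlapped a peak of the other list. At the 5 kb limit of the selection, the nearest peaks inside it were at 5016 bp in DHRS3 and 5049 bp in BCAR1 (replicate 1) and at 5051 bp in HMGA2 and 5108 bp in PIEZO1 (replicate 2). The nearest outside were at 4934 bp in LOC286297 and 4885 bp in MIR100HG (replicate 1) and at 4997 bp in DHRS3 and 4979 bp in CCND1 (replicate 2), so the DHRS3 region fell on different sides in the 2 lists.

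The regions found in both lay deep in long genes. The median intron was number 5 of 12 (quartiles 3 and 9), with 139 regions (23.3%) in intron 2 and 85 (14.3%) in the last intron. The distance to the assigned TSS had a median of 50331 bp and ran from 5016 bp to 517647 bp. The host genes had a median length of 219480 bp, and the region lay at a median of 62.3% of the way along the host. The farthest from a TSS were a pair of regions in UTRN, which encodes the dystrophin homolog utrophin, at 517647 bp (710 bp wide in replicate 1, 861 bp in replicate 2) and 506643 bp (610 and 637 bp), and one in CDKAL1, a tRNA-modifying enzyme, at 488391 bp (298 and 365 bp). Among 17054 coding genes with at least 2 introns in GENCODE 44, the 309 hosts had a median later-intron length of 114 kb against 15.9 kb for the other 16745. The selection kept only later-intron peaks over 5 kb from a TSS, which favors genes with long later introns, so these lengths are a description of what was selected. By chromosome, regions per Mb of later-intron sequence ran from 1.65 on chromosome 17 (47 regions) and 1.20 on chromosome 6 (57 regions) to 0.0607 on chromosome X (2 regions), and none lay in the 2.47 Mb of later intron on chromosome Y. The rates count regions of all hosts, non-coding ones included, over the later introns of coding genes, from which repeats were not removed. Copy number in these cells was not taken into account, and these rates were not tested.

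The labels of the regions were checked against GENCODE 44, another gene annotation than the one in the files. Of the 596 regions, 89 (14.9%) had their centre within 1 kb of a GENCODE TSS and 33 (5.54%) had it in a GENCODE exon, so these are distal or intronic only by the deposited annotation. The partner was annotated as later-intron in 588 cases, and in 34 cases the partner was annotated in a repeat. Annotated CpG islands, GC-rich stretches common at promoters, held 20 regions, of which 14 lay within 1 kb of a GENCODE TSS. Of the 596 regions, 78 had a host transcript annotated as non-coding.

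AP-1 and TCF7L2 words were both more frequent in these regions than in equally wide windows 5 kb to either side. An AP-1 word was present in 303 of 596 regions (50.8%, CI 46.7 to 54.9) and in 113 of 1192 flanking windows (9.48%), an odds ratio of 9.86 (CI 7.62 to 12.8, Fisher's exact test, adjusted exact p = 2.15e-80). A TCF7L2 word was present in 329 regions (55.2%, CI 51.1 to 59.2) and in 403 flanking windows (33.8%), an odds ratio of 2.41 (CI 1.96 to 2.97, adjusted exact p = 3.79e-17). Within the central 200 bp the AP-1 odds ratio was 16.9 (adjusted exact p = 1.3e-82). A region and its own 2 flanks also form a matched set, and an exact conditional test over these sets, added after the data were seen, gave odds ratios of 9.40 (CI 7.03 to 12.8, adjusted exact p = 4.36e-74) for AP-1 and 2.69 (CI 2.15 to 3.39, adjusted exact p = 7.05e-19) for TCF7L2. Over all 3984 replicate 1 peaks found in both, 32.9% held the AP-1 word and 33.4% the TCF7L2 word. The share of the flanks is the base against which each word is to be read. The regions lay outside annotated repeats, but the flanks were not filtered for repeats, exons or other peaks. Median GC content was 42.6% in the regions and 41.0% in the flanks. The part of these differences in the odds ratios was not tested.

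Smaller differences passed the threshold for TEAD and USF. The TEAD word GGAATG, of the factors that carry YAP and TAZ, was in 33.7% of regions. Flanking windows held it in 24.7%, giving an odds ratio of 1.55 (CI 1.24 to 1.93, adjusted exact p = 0.000314). The E-box CACGTG of the USF factors was in 7.72% and 4.45%, giving an odds ratio of 1.80 (CI 1.17 to 2.76, adjusted exact p = 0.0161), but with flanks taken 10 kb away the odds ratio was 1.43 (adjusted exact p = 0.156). It was higher within the central 200 bp (3.06, adjusted exact p = 0.000477) and with 1 region per host gene (2.63, adjusted exact p = 0.000615). The other words did not pass. The CDX2 word of the intestinal homeobox factor (TTTATTG or TTTATGG) was in 25.7% and 21.6% (CI of the odds ratio 0.986 to 1.58). The SP1 word was in 9 regions (odds ratio 2.01), and in replicate 2 coordinates its odds ratio of 2.50 passed (adjusted exact p = 0.0357). Of the rarest words, EGR1 (GCGGGGGCG or GCGTGGGCG) was in 6 regions, CTCF in 3, ETS (CCGGAAGT) in 2, HNF4 (CAAAGTCCA) in 1 and NRF1 in 0 of 596, which allows a share of up to 0.617% (CI). The HNF4 word shares the letters CAAAG with the TCF7L2 word, and all words were searched on both strands. A match is a string of letters, and binding of these factors was not measured.

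**Figure D3:**
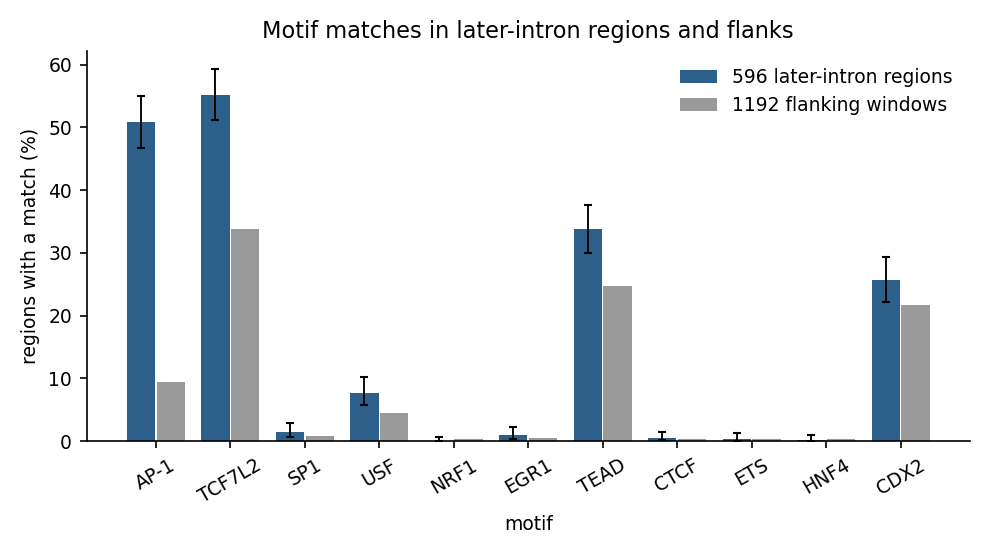
Share of regions with at least 1 match (y axis, percent) for each of 11 motifs (x axis), in the 596 later-intron regions found in both replicates (blue, with 95% Clopper-Pearson intervals) and in 1192 flanking windows of the same widths (gray). AP-1 stands at 50.8% against 9.48% and TCF7L2 at 55.2% against 33.8%, while NRF1, CTCF, ETS and HNF4 are below 1% in both.

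The matches gathered at the centre. AP-1 words started at 13.8 per 100 regions in the 50 bp just past the centre and at 0.671 and 1.68 per 100 in the outermost 50 bp bins, 1000 bp before and after it. TCF7L2 words reached 12.2 per 100 in the bin from 150 to 100 bp before the centre and 10.7 and 10.4 in the bins on either side of the centre, over 3.36 and 5.87 in the outermost bins. Both words occurred together in 175 regions (29.4%), AP-1 alone in 128, TCF7L2 alone in 154 and neither in 139 (23.3%). AP-1 was present in 53.2% of the 329 regions with a TCF7L2 word and in 47.9% of the 267 without one. In the 175 regions, the nearest pair of words started a median of 79 bp apart (quartiles 40.5 and 128.5), and 60 pairs lay within 50 bp. In replicate 1 coordinates a region held at most 3 AP-1 words, as in MMP20, and at most 6 TCF7L2 words, in MSI2, an RNA-binding protein of stem cells. TEAD words stood in 37.3% of regions with AP-1 and 30.0% of those without.

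**Figure D4:**
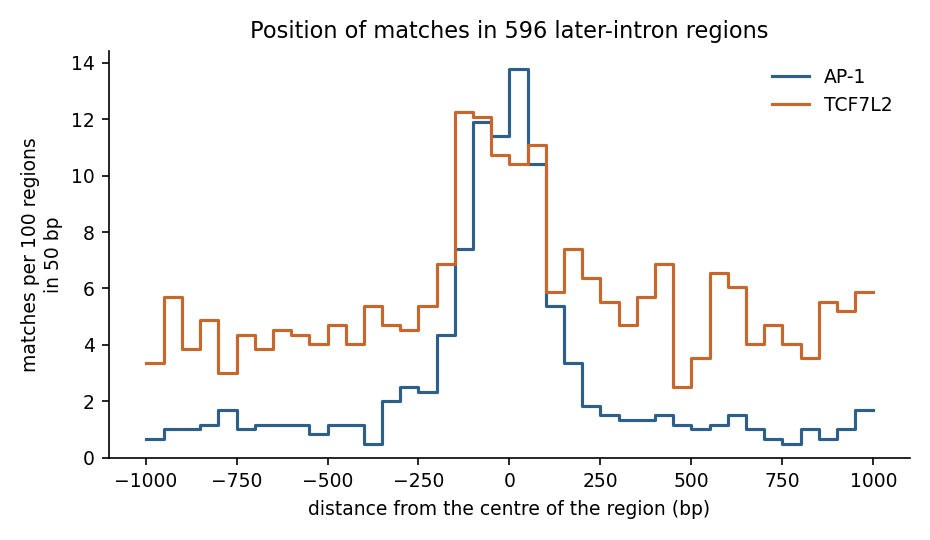
Matches per 100 regions in 50 bp bins (y axis) by distance from the centre of the region (x axis, bp), for AP-1 (blue) and TCF7L2 (orange) over the 596 regions. AP-1 stands at 0.671 and 1.68 at the outer edges and 13.8 just past the centre, and TCF7L2 at 3.36 and 5.87 at the edges and at most 12.2, in the bin from 150 to 100 bp before the centre.

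Compared with other peaks found in both, later-intron regions held AP-1 words far more often than promoter peaks, and no difference from another distal class passed the threshold for AP-1. The AP-1 share was 56.2% in distal first introns (odds ratio of members 0.806, CI 0.585 to 1.11, adjusted exact p = 0.210), 44.8% in intergenic peaks at 5 to 50 kb (1.28, CI 0.986 to 1.65, adjusted exact p = 0.0859) and 57.4% in intergenic peaks over 50 kb (0.769, CI 0.597 to 0.990, adjusted exact p = 0.0630). Within 1 kb of a TSS it was 5.98% of 1472 peaks, for an odds ratio of 16.2 (CI 12.3 to 21.5, adjusted exact p = 2.25e-112). The TCF7L2 share of 55.2% was above the 42.0% of first introns (ratio of odds 1.70, CI 1.23 to 2.34, adjusted exact p = 0.00156), the 43.6% of intergenic peaks at 5 to 50 kb (1.60, CI 1.23 to 2.07, adjusted exact p = 0.00075) and the 10.3% near a TSS (10.8, CI 8.48 to 13.7, adjusted exact p = 1.58e-98). It was close to the 54.9% of intergenic peaks over 50 kb (1.01, CI 0.785 to 1.30).

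Width and base composition also differed between classes, and the part of base composition in these shares was not tested. Median width was 485 bp in later introns and 419.5 bp in first introns, and within the central 200 bp of each region the TCF7L2 shares were 36.2% and 34.1% (odds ratio 1.10, adjusted exact p = 0.833). With 1 region per gene the TCF7L2 odds ratio against first introns was 1.53 (adjusted exact p = 0.0516) and the AP-1 odds ratio against intergenic peaks at 5 to 50 kb was 1.61 (adjusted exact p = 0.00439). In replicate 2 coordinates AP-1 was less frequent in later introns than in intergenic peaks over 50 kb (odds ratio 0.718, CI 0.550 to 0.937, adjusted exact p = 0.0210). GC content had a median of 42.6% in later introns, 43.3% in first introns, 49.0% in intergenic peaks at 5 to 50 kb, 41.8% in those over 50 kb and 65.0% within 1 kb of a TSS. Among the later-intron regions themselves, the 20 in CpG islands held AP-1 in 2 and TCF7L2 in 4, beside 52.3% and 56.4% of the other 576.

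Regions found in both held the words more often than peaks of 1 list. In replicate 1, AP-1 was in 50.8% of matched and 25.3% of the 190 unmatched peaks (odds ratio 3.06, CI 2.10 to 4.50, adjusted exact p = 6.75e-10), and TCF7L2 in 55.2% and 29.5% (2.94, CI 2.05 to 4.27, adjusted exact p = 6.75e-10). In replicate 2, AP-1 was in 57.8% and 40.7% (2.00, CI 1.57 to 2.54, adjusted exact p = 4.96e-09), and TCF7L2 in 66.0% and 39.5% (2.97, CI 2.33 to 3.80, adjusted exact p = 3.37e-19). Matched peaks were the wider ones, and within the central 200 bp the AP-1 shares were 39.9% and 21.6% in replicate 1 and 37.5% and 30.7% in replicate 2. The TCF7L2 shares there were 36.2% and 24.2% in replicate 1 and 35.9% and 24.8% in replicate 2, which brought the odds ratios down to 1.78 (CI 1.21 to 2.64, adjusted exact p = 0.00266) and 1.70 (CI 1.31 to 2.20, adjusted exact p = 7.14e-05). Across 5 groups of the 596 regions by width, the TCF7L2 share was 33.3% in the narrowest and 69.7% in the widest group, and the AP-1 share was 30.8% and 58.8%.

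The gene that the files assigned to a region, that of the nearest TSS, was often not the host. Of 586 regions found in both whose host could be named, 250 (42.7%, CI 38.6 to 46.8) were assigned to another gene, beside 30.5% of all 1231 intron peaks found in both. Distal first-intron regions were assigned to another gene in 32 of 225 cases (14.2%), an odds ratio of 4.48 (CI 2.95 to 6.97, Fisher's exact test, adjusted exact p = 3.94e-15). The share among later-intron peaks of replicate 1 alone was 40.9% of 186 (odds ratio 1.08, CI 0.761 to 1.53, adjusted exact p = 0.671), and in the replicate 2 list it was 43.1% of 562. A first intron begins just after the TSS of its transcript, which a later intron does not. A lower share in first introns is thus favored by how the classes are defined, and the odds ratio only describes them. The assigned gene was non-coding in 120 cases and coding in 130. It lay inside the host in 78 cases, overlapped its edge in 21 and lay outside it in 120, and 31 could not be placed. AP-1 words were in 51.2% of the 336 regions assigned to their host and in 50.4% of the 250 assigned elsewhere, and TCF7L2 words in 59.2% and 51.2%.

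The widest regions with another assigned gene show the kinds of pair. A LINC-PINT region (chromosome 7, 130679847 to 130681147, 1302 bp in replicate 1 and 2138 bp in replicate 2) was assigned to LINC00513, a non-coding gene within it. A region in intron 7 of VMP1 (chromosome 17, 57860135 to 57861269, 1136 and 2047 bp) went to MIR21, an oncogenic microRNA whose annotated start lay 57925 bp downstream. For microRNA genes the start in the annotation need not be that of the primary transcript. One in intron 26 of MTHFD1L (chromosome 6, 151388856 to 151390036, 1182 and 1776 bp) went to AKAP12, a scaffold of protein kinase A, 171688 bp away and outside the host. The FAM120B tandem repeat (1062 and 1375 bp) went to MIR4644. In intron 8 of ARSG, a pair of regions (912 and 1478 bp, and 815 and 1486 bp) went to PRKAR1A, a regulatory subunit of protein kinase A.

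The remaining members of the 12 widest had their own host as the assigned gene. MSRB3-AS1 held 3 of them (1255 and 1933 bp, 985 and 2187 bp, 757 and 1997 bp in replicates 1 and 2), each with a TCF7L2 word. None held an AP-1 word in replicate 1 coordinates, and the replicate 2 peaks of 1933 and 1997 bp each held 1. MMP20 (1460 and 1485 bp) held 3 AP-1 words, and LOC100505918, a non-coding gene (1116 and 1254 bp), also held 3 and no TCF7L2 word. PDE4B (1047 and 1247 bp) held TCF7L2 alone, and SYBU, a syntaxin-binding protein of axonal transport (807 and 1530 bp), held both. All of these were wider in replicate 2, and the relative increase was smallest in MMP20.

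Regions were spread over 346 hosts, of which 238 held 1 region and 21 held 5 or more (146 regions in all). These counts include the 10 regions without a gene match, where each transcript counted as a host of its own. RAD51B, which takes part in DNA repair by homologous recombination, held the most, with 12 in each list over 601 kb, of which 6 were assigned to ZFP36L1, an RNA-binding protein of mRNA decay. VTI1A, a SNARE protein next to TCF7L2 on chromosome 10, held 10 in replicate 1 coordinates and 9 in replicate 2, CDKAL1 9 and 10, and PCDH7, a protocadherin, 9 and 8. LINC-PINT and the non-coding SLC38A4-AS1 held 8 in each, PHLDB2 8 and 7, and PDE4B 8 and 6. A region found in both needs a partner in the other list, so close counts follow from the definition and do not measure agreement. All members, matched or not, numbered 13 and 14 in RAD51B, 11 and 27 in VTI1A, 9 and 13 in CDKAL1, and 10 and 19 in PCDH7. They numbered 19 and 18 in LINC-PINT, 8 and 14 in SLC38A4-AS1, 12 and 18 in PHLDB2, and 8 and 13 in PDE4B.

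Motif content varied between these hosts, here in replicate 1 coordinates. In RAD51B, 10 of 12 regions held AP-1 and 6 held TCF7L2. PDE4B was the other way around, with AP-1 in 1 of 8 and TCF7L2 in 7, as were PCDH7 (1 and 6 of 9) and PHLDB2 (1 and 6 of 8). LINC-PINT held few of either (2 and 3 of 8), VTI1A held 4 and 7 of 10, CDKAL1 5 and 5 of 9, and SLC38A4-AS1 4 and 5 of 8. Regions within 1 host lie near each other and are not independent, so these counts were not tested. Among hosts with 5 or more regions, none was assigned to its host in PPP3CA (6 to MIR8066), SPATS2 (5 to KCNH3) and NBPF25P. NBPF25P lies in duplicated sequence on chromosome 1, where reads of several copies cannot be told apart, and its regions are uncertain.

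**Figure D5:**
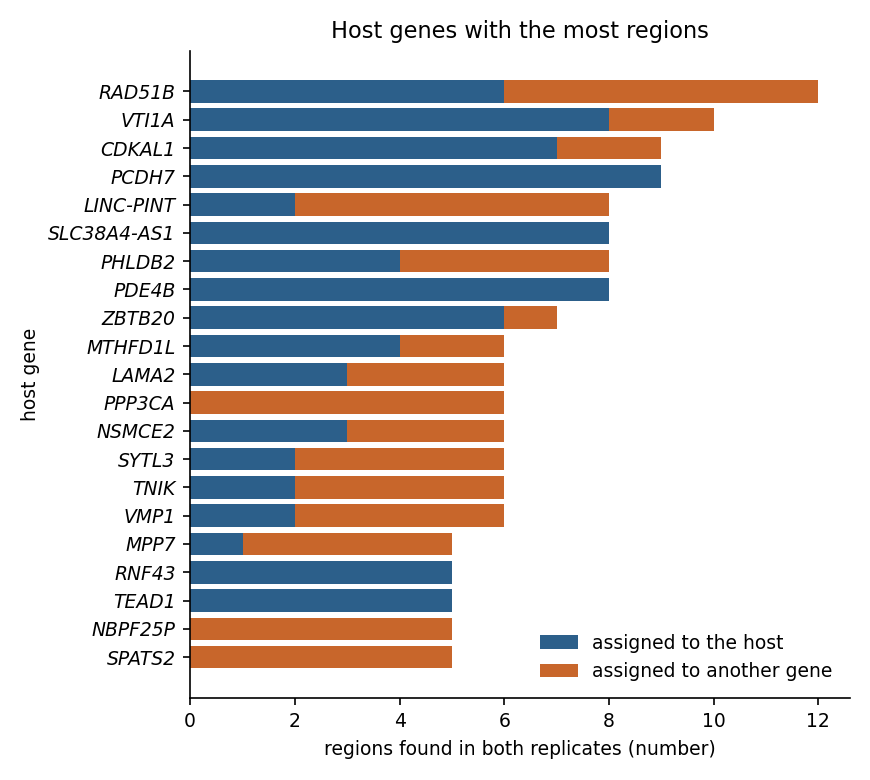
Number of regions found in both replicates (x axis, replicate 1 coordinates) in each of the 21 host genes with 5 or more (y axis), split into those whose nearest annotated TSS belonged to the host (blue) and to another gene (orange). RAD51B leads with 12, of which 6 were assigned to ZFP36L1, and PPP3CA, SPATS2 and NBPF25P have no region assigned to the host.

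Gene lists of pathways and cell types were read against all 17054 coding genes with 2 or more introns, of which 1.81% were hosts and which held 0.641 regions per Mb of later intron. Of 16 genes of WNT targets and feedback, 2 were hosts, with 8 regions in 0.889 Mb of later intron. RNF43 held 5 in intron 2, spread over 14.8 kb and all assigned to it, with widths of 562 to 920 bp in replicate 1 and 779 to 1540 bp in replicate 2. In replicate 1 coordinates 3 held a TCF7L2 word and none an AP-1 word, whereas in replicate 2 coordinates 4 held a TCF7L2 word and 1 an AP-1 word. TCF7L2 held 3, in introns 4 and 5 (635 and 1312 bp, 711 and 1024 bp, 588 and 1119 bp). In replicate 1 coordinates all 3 held an AP-1 word, and only 1, the region printed above, held a TCF7L2 word. None of 29 WNT pathway components, 12 MAPK feedback genes, 9 AP-1 family genes and 16 hepatocyte markers was a host, nor was any of the 3 control loci of the study counted here (AXIN2, DKK1 and MYC). Another of its control loci, SP5, does not have 2 introns in the transcript used, and genes of this kind are left out of every list count. The AP-1 family, MAPK feedback and hepatocyte genes have short later introns (medians of 3.40, 5.31 and 7.37 kb), whereas WNT components have a median of 52.4 kb. The 3 control loci have a median of 1.38 kb and 0.0288 Mb in all, while regions had to lie over 5 kb from a TSS. Their absence among the hosts is thus favored by the selection and carries little information. With 1.81% of all genes as hosts, lists of these sizes can hold none without differing from all genes, and no test was run. RNF43 and TCF7L2 were counted among the WNT targets and not among the components.

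Of 19 genes of the YAP and TEAD pathway, 3 were hosts, with 11 regions (10.9 per Mb). TEAD1, a DNA-binding partner of YAP, held 5 (replicate 1 widths of 520 to 719 bp), each with a TCF7L2 word. PTPN14, a phosphatase that restrains YAP, held 3 (179 to 524 bp), and WWTR1, which encodes TAZ, held 3 (355 to 453 bp). Of 26 receptor tyrosine kinases and EGFR ligands, 2 were hosts. MET, the hepatocyte growth factor receptor, held 4 (461 to 993 bp in replicate 1), of which the 3 in introns 14 to 16 held AP-1 and were assigned to CAPZA2, an actin-capping protein gene. IGF1R held 1 (291 and 390 bp). Among 19 TGF-β and BMP genes, the receptor TGFBR2 held 3 (345 to 646 bp) and SMAD6 held 1 (457 and 644 bp). A further TGFBR2 peak of 1545 bp in replicate 2 was counted as unmatched at a centre distance of 419 bp.

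Adhesion and cytoskeleton genes gave 4 hosts of 36 with 6 regions (1.50 per Mb), namely DST and MACF1, a pair of plakin cross-linkers with 2 each, ITGB5 with 1 and TJP1 with 1. Of 18 intestinal epithelial transcription factors, RUNX1 held 2 regions (639 and 682 bp, 341 and 433 bp). The candidates of the study, which were chosen by it on these samples, gave 2 hosts of 10, PHLDB2, which binds phosphoinositides at the cell cortex, and FAT1, an atypical cadherin (288 and 557 bp). Long genes at common fragile sites gave 3 hosts of 17, RAD51B, CCSER1 and GMDS. Their rate of 0.641 regions per Mb equaled that of all genes but rested on RAD51B, which held 12 of the 14 regions. CCSER1 and GMDS held 1 each. Among markers of other cell types, neuron markers gave 2 hosts of 16 at 0.494 per Mb, GRIN2B, a glutamate receptor subunit, with 4 regions assigned to LINC01559 and SYT1 with 1. Immune markers gave IKZF3 with 1 region and fibroblast markers gave FN1 with 1.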

How the data were processed

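APC ChIP-seq and input libraries of HCT-116 cells were described by the labels as 2 independent biological replicates. Per the methods of the study, the authors aligned reads to hg19 (BWA), called peaks of each ChIP library over its own input (MACS2), set the score threshold so as to retain control peaks at AXIN2, DKK1 and MYC, and annotated peaks with RefGene. Tool versions: not given in the sources used here. In the deposited files the score equaled end minus start plus 2 in all 6263 and 8393 rows, so the authors' column was read as peak width, which depends on depth and threshold as well as on enrichment. The deposited table of distances between replicates was not used here, and no values of the input libraries were analysed here.

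Members were selected by the deposited annotation, and the members, gene lists and tests were chosen with earlier results of these data known. Gene names that had become dates in 9 replicate 2 rows (1 of them a member) were restored from the descriptions in the same rows. Hosts were named by matching the transcript of the annotation to RefSeq genes (table of the GRCh38.p14 assembly, used for names only). Of the regions found in both, 10 in replicate 1 and 9 in replicate 2 had no match and were left out of the host comparison. GENCODE 44 on GRCh37 (the assembly of hg19) gave exons, TSS positions and later-intron lengths, and no peak extended beyond a chromosome end. Words for 11 motifs were searched on both strands of the whole peak, and flanking windows of equal width lay 5 kb away, compared as separate windows and, in an alternative, as sets matched to their region by an exact conditional test. The SP1, NRF1 and CTCF words were consensus strings with ambiguous letters. Shares were compared by Fisher's exact test, two-sided, with Benjamini-Hochberg adjustment within each family (6, 11, 8, 4 and 2 tests), and intervals on shares were exact Clopper-Pearson at 95%. Regions are not replicates, so p-values describe regions of these 2 libraries and not cultures. The functions were tested on simulated data. Widths, positions and host lists were described without tests.

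Named regions were the 12 that ranked widest on average over the lists, the 8 hosts with the most regions, regions hosted by genes of the 16 lists, the 6 widest assigned elsewhere, the 3 farthest from a TSS, those nearest the 5 kb limit and the 3 widest unmatched of each list. Printed sequences were centres of the widest regions with each kind of word, outside chromosome 8 and with the word inside the window. Exceptions are named in the text. Python 3.11.15, scipy 1.17.1, pandas 2.3.3, numpy 2.4.6, pysam 0.24.0 and matplotlib 3.10.9 were used.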

Additional observations from a re-analysis of the deposited data

How the results depend on the processing

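No paired analysis was possible because no comparison was between groups of samples whose replicate numbers could be paired. Regions are matched to their own flanks, and the exact conditional test of these sets, added after the data were seen, changed no call among the 11 motifs. The 31 odds ratios were recomputed under 170 combinations of result and alternative, and 137 kept their direction and their side of the 0.05 threshold. NRF1 gave no value with flanks 10 kb away, since neither set held a match. AP-1 and TCF7L2 against flanks, matched against unmatched members for both words, and the share assigned to another gene against first introns kept their call under every alternative run for them. For the last 2 of these, that included 1 region per host gene, an alternative chosen after the data were seen. Settings named as without a replicate still used both lists to match peaks, so no replicate was left out in full. The cause of the changes below was not tested.

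Recurrence was the least stable. Against intergenic peaks at 5 to 50 kb in replicate 1, the odds ratio of 1.45 lost its call in the wider 50% of each list (1.66), with 1 peak per gene (1.16) and over 10 kb from a TSS (1.42); in replicate 2, 0.882 turned to 1.08 in the wider 50% and to 1.00 with repeats kept. Against intergenic peaks over 50 kb, replicate 1 went from 0.889 to 1.06 in the wider 50% and 1.91 with repeats kept, and replicate 2 from 1.03 to 0.965 in the wider 50%, 0.906 with 1 peak per gene and 1.71 with repeats kept. Leaving out a replicate leaves the value of the other list, so that without replicate 1 or without replicate 2 the 3 recurrence results ranged from 0.875 to 1.18 (first introns), 0.882 to 1.45 (5 to 50 kb) and 0.889 to 1.03 (over 50 kb).

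Among motifs against flanks, USF lost its call with flanks 10 kb away (1.43). CTCF, with 3 regions, turned from 1.50 to 1 in the central 200 bp, 0.666 with 1 region per host gene and 1 with centres under 200 bp apart, and ETS, with 2, turned to 0 in the central 200 bp. Without replicate 1, here meaning regions found in both taken in replicate 2 coordinates, HNF4 turned to 1.43 and SP1 gained a call (2.50). Against other classes, TCF7L2 against first introns lost its call in the central 200 bp (1.10) and with 1 region per gene (1.53). TCF7L2 against intergenic peaks over 50 kb turned from 1.01 to 0.971 in the central 200 bp and 0.988 with 1 region per gene. AP-1 against the same class turned from 0.769 to 1.02 in the central 200 bp and gained a call in replicate 2 coordinates (0.718). AP-1 against 5 to 50 kb gained one with 1 region per gene (1.61). The share assigned to another gene, matched against unmatched, turned from 1.08 to 0.836 in the wider 50%, 0.943 over 10 kb and 0.956 with 1 region per host gene. Depth was unknown, so how many regions each library missed could not be estimated.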
